A study of Homo sapiens with 4 samples.

Results

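Of 18417 genes measured, 8 genes for secreted stress hormones and blood-vessel growth factors are described here: GDF15, ADM, STC1, STC2, VEGFA, VEGFB, VEGFC and ANGPTL4. They were chosen by gene symbol with the array values already known, for their levels, their change with OGE in each line and their difference between the lines. Those values are therefore given as a description, with no test. The arrays came from 4 groups of established human osteosarcoma cell cultures, with 1 array per group: U2-OS cells given 600 μg/mL OGE, U2-OS cells given 0 μg/mL OGE, HOS cells given 600 μg/mL OGE, and HOS cells given 0 μg/mL OGE, all for 24 h. The 0 μg/mL cultures are called controls below. The labels give OGE only by this abbreviation, name no vehicle, and describe each line as grown in the same serum-containing medium. The study asked how OGE acts on the growth of these lines.

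All levels are RMA expression values on a log2 scale, so a difference of 1 is a 2-fold difference. A gene counted as higher or lower by size when 2 arrays differed by at least 1 and the higher value reached a floor, the median of its own array over all probe sets. These medians lay between 3.58 and 3.62. A level is compared only with the level of the same gene on another array, since probe sets of different genes are not on a common scale. With 1 array per group no spread between cultures is known, so the order of 2 arrays that lie close together has no meaning. Among genes at the floor, the median absolute change with OGE was 0.35 in U2-OS and 0.27 in HOS, and 95% of the changes lay between -1.44 and 1.05 in U2-OS and between -0.96 and 0.85 in HOS.

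The label osteosarcoma was checked on marker genes. Of 9 measured osteoblast markers, 5 were at the floor on all 4 arrays, among them RUNX2, SP7 and COL1A1, and SPP1 and IBSP were below it on all. Lineage markers also changed by size with OGE. COL1A1 changed by -1.75, SPARC by -1.40 and CDH11 by -1.31 in U2-OS, COL1A2 by -1.25 in HOS, and the mesenchymal markers FN1 by -1.20 in U2-OS and -1.61 in HOS and CD44 by 1.43 in U2-OS. Of 6 mesenchymal markers, 5 were at the floor on all arrays, among them VIM. Of 6 epithelial markers, KRT8 and KRT18 were at the floor on all arrays, at 7.84 or higher, and CDH1 was below it on all. None of the 6 epithelial markers, of which 4 were at the floor in each line, changed by size with OGE. Against the shares above, nothing is read from that count. Of 10 endothelial markers, 2 (CLDN5 and ROBO4) were at the floor on all arrays, and the defining markers PECAM1, CDH5 and VWF were at 3.30 or lower on every array. The mean log2 level of the endothelial list was 3.02 and 2.77 in U2-OS with and without OGE and 2.98 and 2.93 in HOS. Of 5 immune markers, CD68 alone was at the floor, and it was higher with OGE, by 1.35 in U2-OS and 1.05 in HOS. The part of these markers in the results below was not tested. In a culture, more RNA per cell and a larger share of cells that make it cannot be told apart.

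The 8 genes encode secreted signals, some of which cells release under stress. Growth differentiation factor 15 is a distant member of the TGF-beta family that acts on brainstem neurons to lower food intake, and its gene responds to the transcription factors ATF4 and CHOP. Adrenomedullin dilates and stabilises vessels, and the VEGF proteins drive the growth of blood and lymph vessels; ADM and VEGFA are textbook targets of hypoxia-inducible factor (HIF). Stanniocalcins are glycoprotein hormones that inhibit the pappalysin proteases, and angiopoietin-like 4 blocks lipoprotein lipase and responds to PPAR factors, to HIF and to glucocorticoids.

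With OGE, GDF15, ADM and VEGFA were higher by size in U2-OS, and GDF15, STC2 and VEGFA in HOS. These were 3 of the 8 genes in each line, and 5 of the 8 were at the floor in U2-OS and 7 in HOS. Over all genes at the floor, 2.94% of 11506 were higher by size in U2-OS and 1.70% of 11333 in HOS. Both lines shared 2 of the 8 genes, GDF15 and VEGFA, against a background of 0.768% of 10810 genes. None of the 8 genes was lower by size in either line, where 7.88% of genes were lower in U2-OS and 2.18% in HOS. Because these contrasts chose the genes, nothing is read from their share. The median change over the 8 genes was 0.45 in U2-OS and 0.55 in HOS, against 0.03 and 0.02 over all genes. ADM, VEGFA, VEGFB and VEGFC, 4 of the 8 genes, were at the floor on all 4 arrays. GDF15 was at the floor on 3 arrays, STC2 on 2, ANGPTL4 on 1 and STC1 on 0.

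**Figure D1:**
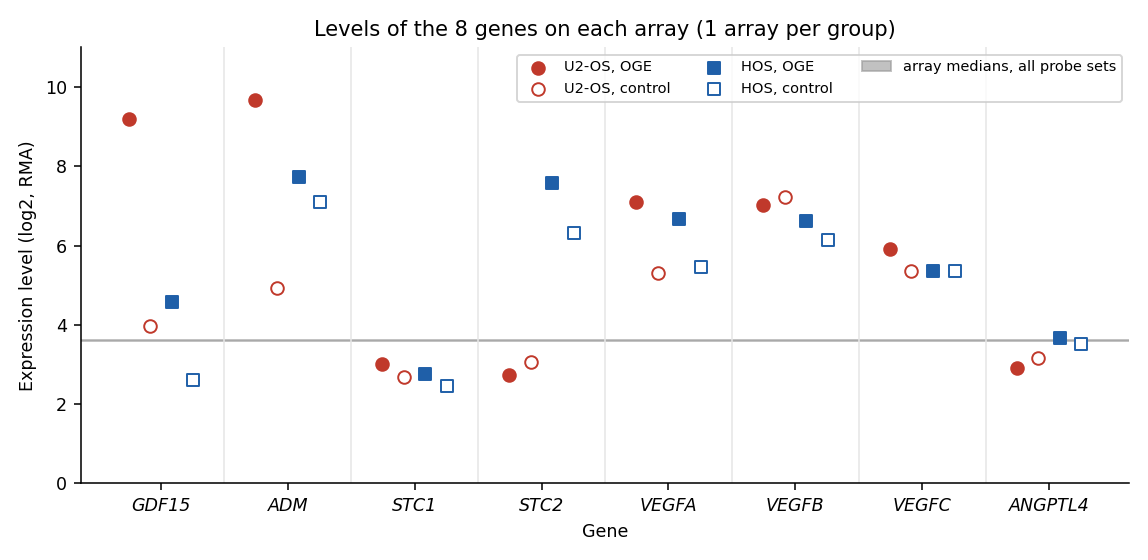
Expression level (log2 RMA value, vertical axis) of each of the 8 genes on each array, with U2-OS as circles, HOS as squares, OGE filled and control open; 1 point is 1 array and there are no error bars. The grey band spans the array medians, 3.58 to 3.62. The filled circle stands far above the other points for GDF15 at 9.20, STC2 is high in both HOS arrays only, and all STC1 points lie under the band.

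GDF15 gave the largest change of the 8 genes. Its level was 9.20 in U2-OS with OGE, against 3.98 in U2-OS controls, a difference of 5.22 or 37.3-fold. In HOS it was 4.57 with OGE, against 2.61 in controls, a difference of 1.96 or 3.89-fold. The U2-OS array with OGE was thus the only one with a level far above the floor, while the HOS control array was below it. Among genes at the floor, GDF15 had rank 2 by rise in U2-OS and rank 17 in HOS. The change in U2-OS exceeded that in HOS by 3.26. RMA pulls low values together, and low values enter both changes, since the U2-OS control level lay only 0.40 above its array median. The part of this in the difference between the lines was not tested.

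ADM differed from GDF15 in where it was already high. Its level was 9.68 in U2-OS with OGE, against 4.92 in U2-OS controls, and 7.72 in HOS with OGE, against 7.09 in HOS controls. The change was 4.76 in U2-OS, or 27.1-fold and rank 4 of all genes at the floor, and 0.63 in HOS, or 1.55-fold and rank 687. The HOS change did not reach the size threshold and lay within the central 95% of changes in that line. The lowest ADM level was in U2-OS controls and the highest in U2-OS with OGE, with both HOS arrays between them.

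VEGFA, the main ligand for the endothelial receptor KDR, was higher in both lines by a similar amount. It was at 7.11 in U2-OS with OGE, against 5.30 in U2-OS controls, a difference of 1.81 or 3.51-fold. In HOS it was at 6.68 with OGE, against 5.45 in controls, a difference of 1.23 or 2.35-fold. Both OGE arrays lay above both control arrays, and the lines were within 0.43 of each other in either state. Its rank by rise was 76 in U2-OS and 90 in HOS.

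VEGFB, a ligand of FLT1 with a known role in heart and fat tissue, was at 7.01 in U2-OS with OGE, against 7.23 in U2-OS controls, and at 6.61 in HOS with OGE, against 6.14 in HOS controls. Its changes of -0.22 and 0.47 had opposite signs and neither reached the threshold. VEGFC, a ligand of FLT4 that drives lymph vessel growth, was at 5.91 in U2-OS with OGE, against 5.36 in U2-OS controls, and at 5.35 on both HOS arrays. Its change was 0.55 in U2-OS and 0.00 in HOS. Of VEGFA, VEGFB and VEGFC, VEGFA alone was higher by size with OGE in either line; the difference between its change and those of VEGFB and VEGFC was not tested.

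STC2 was high in HOS and low in U2-OS. Its HOS level was 7.57 with OGE, against 6.31 in controls, a difference of 1.26 or 2.39-fold and rank 86. In U2-OS it was at 2.73 with OGE, against 3.06 in controls, and both values were below the array median, so the difference of -0.33 is between values near the low end of the scale. STC1, which encodes the other mammalian stanniocalcin, was at 3.02 in U2-OS with OGE, against 2.68 in U2-OS controls, and at 2.75 in HOS with OGE, against 2.45 in HOS controls. All 4 STC1 values were below the array medians, and the changes of 0.34 and 0.30 are not called. ANGPTL4 was at 2.92 in U2-OS with OGE, against 3.15 in U2-OS controls, and at 3.67 in HOS with OGE, against 3.52 in HOS controls. Of these values only that of HOS with OGE reached the floor, by 0.05, and the changes of -0.23 and 0.15 were under the threshold.

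**Figure D2:**
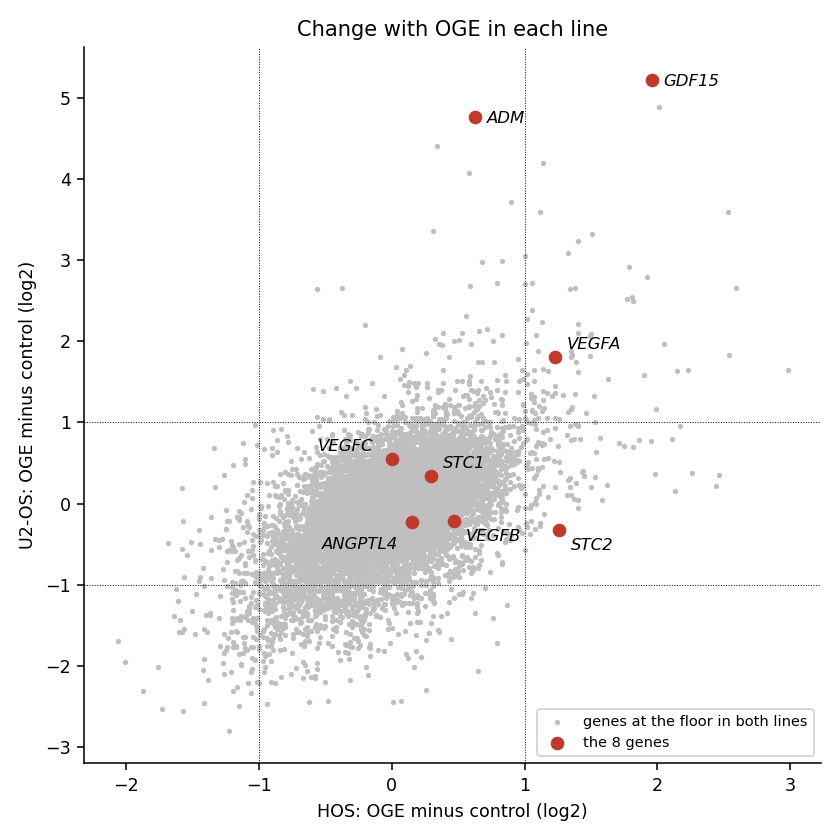
Change with OGE in U2-OS (vertical axis, log2) against the change in HOS (horizontal axis, log2) for the 10810 genes that reached the floor in each line (grey) and for the 8 genes (red, of which STC1 is below the floor in both lines and STC2 and ANGPTL4 in U2-OS); dotted lines mark a 2-fold difference. GDF15 lies at 1.96 and 5.22, ADM at 0.63 and 4.76, VEGFA at 1.23 and 1.81, and STC2 at 1.26 and -0.33.

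RefSeq promoters (GRCh38.p14) were matched to 6 of the 8 genes, all but STC1 and VEGFA. Only the first listed promoter of each gene was used. The 250 bases before the gene start are shown for GDF15, ADM and STC2, those of the 6 higher by size with OGE. They are also shown for ANGPTL4, which did not reach the threshold. They are written 5′ to 3′ along the gene's own strand, and capitals mark the hypoxia response core, ACGTG or GCGTG, on either strand. The windows are chr19:18385908-18386157, plus strand, for GDF15, chr11:10304823-10305072, plus strand, for ADM, chr5:173328415-173328664, minus strand, for STC2, and chr19:8363905-8364154, plus strand, for ANGPTL4.
GDF15: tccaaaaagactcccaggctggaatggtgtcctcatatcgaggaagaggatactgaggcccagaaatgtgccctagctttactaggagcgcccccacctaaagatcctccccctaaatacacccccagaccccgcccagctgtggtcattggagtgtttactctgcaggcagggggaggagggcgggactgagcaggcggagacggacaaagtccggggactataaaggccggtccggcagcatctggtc
ADM: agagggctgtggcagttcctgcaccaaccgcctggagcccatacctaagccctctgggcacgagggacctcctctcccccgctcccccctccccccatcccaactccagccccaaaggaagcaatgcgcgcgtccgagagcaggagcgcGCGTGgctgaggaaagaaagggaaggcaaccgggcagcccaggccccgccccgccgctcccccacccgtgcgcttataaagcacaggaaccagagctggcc
STC2: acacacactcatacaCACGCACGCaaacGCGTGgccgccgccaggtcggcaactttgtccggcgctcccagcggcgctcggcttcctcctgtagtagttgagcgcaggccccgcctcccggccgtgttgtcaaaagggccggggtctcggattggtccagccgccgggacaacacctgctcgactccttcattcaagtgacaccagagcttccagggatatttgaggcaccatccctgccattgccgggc
ANGPTL4: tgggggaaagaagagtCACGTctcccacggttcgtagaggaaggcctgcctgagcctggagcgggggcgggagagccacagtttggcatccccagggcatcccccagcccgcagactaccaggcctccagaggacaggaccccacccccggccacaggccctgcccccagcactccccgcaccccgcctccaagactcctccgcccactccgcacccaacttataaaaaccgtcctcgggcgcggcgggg

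The ADM window held 1 match to GCGTG, 97 to 101 bases before the start, and no ACGTG. The STC2 window held 3 matches to GCGTG between 218 and 235 bases before the start, of which the pair on the opposite strand shares 1 base. The ANGPTL4 window held 1 ACGTG, 230 to 234 bases before the start. The GDF15 window held neither core. Of the windows not shown, VEGFB held 1 GCGTG, 57 to 61 bases before the start, and VEGFC 1, 55 to 59 bases before it, so GCGTG was in 4 of the 6 windows, and VEGFB and VEGFC did not reach the threshold with OGE. GCGTG was present in 32.2% and ACGTG in 18.5% of the 35116 RefSeq promoter windows of this length, so single matches are common. The GC box GGGCGG, found in 42.6% of all windows, was in 5 of the 6 windows of these genes, all but that of STC2. The antioxidant response letters TGANNNNGC, found in 35.2% of windows, were in those of GDF15, 53 to 61 bases before the start, and VEGFC. The C/EBP-ATF composite TGATGNAA, the cAMP response element TGACGTCA, the E box CACGTG, which contains ACGTG, and the AP-1 letters TGANTCA were in none of the 6, and in 3.14%, 1.65%, 6.34% and 6.57% of all windows. A match is a description of these letters, and sites farther from the start were not searched.

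The lines differed in the level of several of these genes, with OGE and without it. With OGE, GDF15 was higher in U2-OS than in HOS by 4.63 or 24.8-fold and ADM by 1.96 or 3.89-fold, and STC2 differed by -4.84, a level 28.6-fold lower in U2-OS. By size, 4.89% of 11492 genes were higher in U2-OS with OGE, and 6.24% lower. GDF15 had rank 6 among all genes higher in U2-OS with OGE, and STC2 rank 5 among those lower. Without OGE, GDF15 was higher in U2-OS by 1.37 and VEGFB by 1.09, while ADM and STC2 were lower, with differences of -2.17 and -3.25. The background without OGE was 8.26% of 11605 genes higher in U2-OS, against 5.64% lower. The direction for STC2 was thus the same in both states.

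ADM alone among the 8 genes was called in opposite directions in the states, lower in U2-OS without OGE and higher with it. VEGFB was higher in U2-OS by size without OGE only, with a difference of 0.40 with OGE. VEGFA differed between the lines by 0.43 with OGE and -0.15 without it, VEGFC by 0.56 and 0.01, STC1 by 0.27 and 0.23, and ANGPTL4 by -0.75 and -0.37. None of these reached the threshold. Over the 8 genes the median difference between the lines was 0.42 with OGE and -0.07 without it, against -0.01 and -0.03 over all genes.

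**Figure D3:**
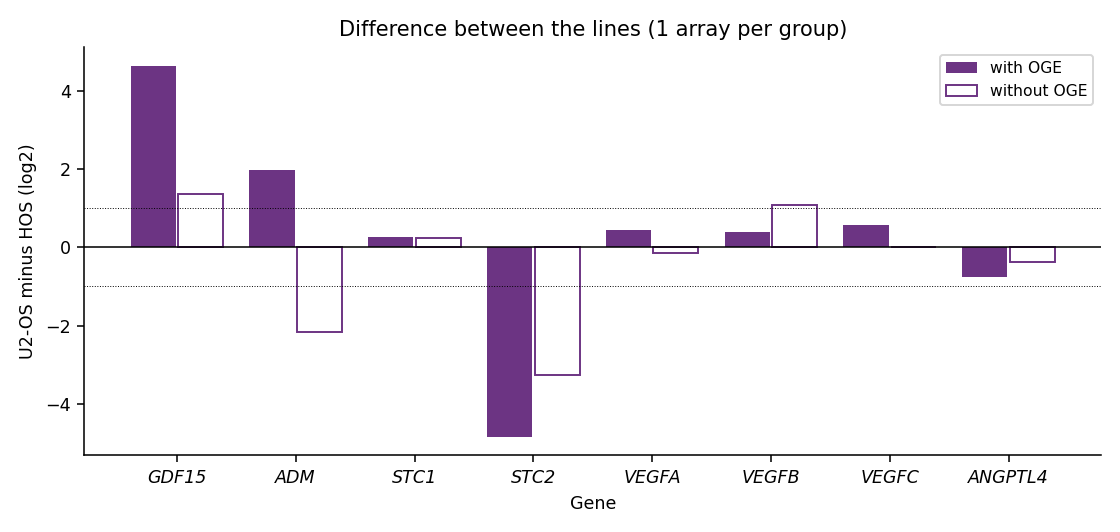
Difference between the lines, U2-OS minus HOS (log2, vertical axis), for each of the 8 genes with OGE (filled bars) and without it (open bars); each bar is the difference of 2 single arrays, with no error bar, and dotted lines mark 2-fold. The ADM bars point in opposite directions, at 1.96 with OGE and -2.17 without it, and both STC2 bars point down.

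The genes whose pattern over the 4 arrays came nearest to these were found by the root-mean-square difference of levels, each gene first centred on its own mean. The 3 genes nearest to GDF15, at 0.626 to 0.850, were DDIT4, an inhibitor of mTORC1 signalling, the heme oxygenase HMOX1, and the transcription factor MYC. Picked for likeness to GDF15, they were also higher with OGE by size in both lines, by construction. MYC only just reached the threshold in HOS, with a change of 1.00. DDIT4 changed by 4.89 in U2-OS and 2.01 in HOS. Nearest to ADM were the hexokinase HK2 at 0.289, the uridine phosphorylase UPP1 at 0.473 and the lipid droplet gene PLIN2 at 0.638. HK2, picked for its nearness to ADM and so alike by construction, had a level of 4.90 in U2-OS controls against 7.52 in HOS controls, and a change of 4.41 in U2-OS against 0.34 in HOS. VEGFA had closer neighbours, the amino acid transporter subunit SLC3A2 at 0.099, the small nucleolar RNA SNORD60 at 0.106 and OSGIN1 at 0.128. The genes nearest to STC2, FOXR1, BHMT2 and the transcription factor TFAP2C, at 0.473 to 0.580, shared its high level in HOS; none of them changed by size with OGE. All of these neighbours were picked on the same 4 arrays, so nothing is read from what they share with the gene they are nearest to. These distances rest on 4 arrays that all genes share and carry no test.

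**Figure D4:**
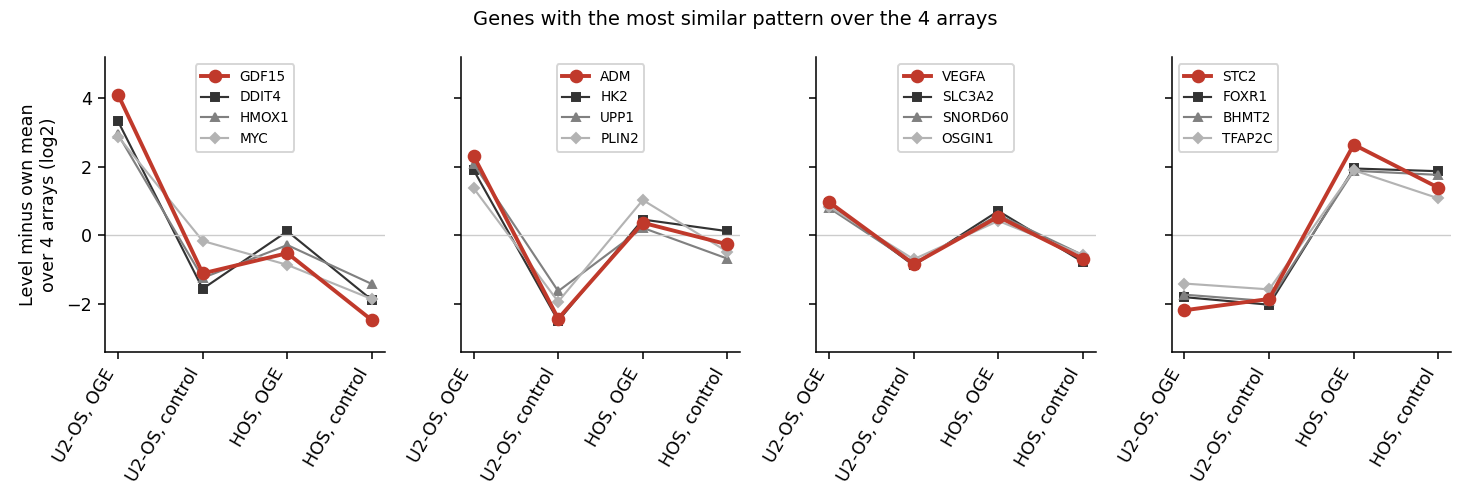
Level minus the gene's own mean over the 4 arrays (log2, vertical axis) for GDF15, ADM, VEGFA and STC2 (red) and the 3 genes with the nearest pattern to each (grey), with 1 array per position on the horizontal axis; lines only join the points of a gene. HK2 follows ADM at a root-mean-square difference of 0.289, and SLC3A2 follows VEGFA at 0.099.

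Of 11 measured receptor genes, 5 were below the floor on all 4 arrays, and none was higher or lower by size with OGE in either line. Only 5 receptor genes reached the floor in the U2-OS comparison and 6 in the HOS comparison. For U2-OS the background share of rises by size was 2.94% and that of falls 7.88%. For HOS the rises made up 1.70% and the falls 2.18%. With so few receptor genes able to pass, nothing is read from the lack of calls. GFRAL, the brainstem receptor of GDF15, was at 1.33 or lower on every array. CALCRL, which forms the adrenomedullin receptor with a RAMP protein, was at 1.43 or lower. Of the RAMP genes, RAMP1 and RAMP3 were at the floor on all 4 arrays and RAMP2 on 2. RAMP2 changed by 0.96 in U2-OS and 0.18 in HOS, under the threshold. KDR and FLT1, VEGF receptors of blood vessel endothelium, were at 2.40 or lower, while FLT4, the VEGFC receptor, was at the floor on all 4 arrays, between 3.90 and 4.27. The co-receptor NRP1 was higher in U2-OS than in HOS, by 1.66 with OGE and 1.48 without it, and NRP2 lower, by differences of -1.18 and -2.57. Median changes of the receptor list with OGE were 0.21 in U2-OS and -0.10 in HOS.

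Of 9 measured family members, 6 were at the floor in each line, where 2.94% of all genes at the floor were higher in U2-OS and 1.70% in HOS. PGF and CALCB each passed the size rule in a single line, both upward, and the other 7 passed it in neither. PGF, the placental VEGF relative, did so in HOS, at 5.65 with OGE against 4.50 in controls, and not in U2-OS, where it was at 5.47 with OGE against 5.60 in controls. CALCB, a calcitonin gene-related peptide gene, did so in U2-OS, at 3.72 with OGE against 2.65 in controls, close to the floor, and changed by -0.56 in HOS; after cyclic loess its U2-OS change was no longer called. ADM2, a relative of ADM, changed by 0.33 in U2-OS and 0.56 in HOS. The list's medians were 0.25 and 0.04.

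Of 12 measured genes for enzymes that mature these ligands or bind them outside the cell, 9 were at the floor in U2-OS and 8 in HOS. None was higher by size with OGE and 2 were lower in U2-OS, where 7.88% of all genes at the floor were lower and 2.94% higher. PAM, which amidates adrenomedullin into its active form, was at 4.96 in U2-OS with OGE against 5.96 in controls, a fall of exactly the threshold, and changed by -0.58 in HOS; after quantile normalization its U2-OS change was -0.97 and was not called. ADAMTS3, which cleaves VEGFC, was at 3.43 in U2-OS with OGE against 4.89 in controls, a change of -1.46, and was below the floor in HOS. FURIN, a protease that cleaves proproteins, changed by -0.21 and 0.53. The pappalysin genes PAPPA and PAPPA2, whose products stanniocalcins inhibit, were below the floor on all arrays.

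Of 17 other secreted vessel growth factors measured, 10 were at the floor in U2-OS and 6 in HOS. None was higher by size with OGE in either line, where the background was 2.94% in U2-OS and 1.70% in HOS, and nothing is read from that count. PDGFC, a platelet-derived growth factor, was lower in both lines, the only gene of the list called lower in either. It was at 2.90 in U2-OS with OGE against 5.23 in controls, a change of -2.33. In HOS it was at 5.10 with OGE against 6.16 in controls, a change of -1.06. Among all genes at the floor, 7.88% were lower in U2-OS and 2.18% in HOS. The share lower in both lines was not computed. The list's median changes were 0.18 in U2-OS and -0.09 in HOS. LIF was higher in U2-OS than in HOS, by 1.96 with OGE and 2.36 without it, and PDGFA by 1.42 and 1.19. Of 11 secreted inhibitors of vessel growth, 8 were at the floor in U2-OS and 9 in HOS, and none was higher with OGE. In U2-OS 2 were lower, where 7.88% of all genes at the floor were lower. These were the thrombospondin THBS1 with a change of -1.63 and the semaphorin SEMA3A with -1.59. In HOS these genes changed by -0.45 and -0.03. SEMA3A was higher in U2-OS than in HOS, by 1.17 with OGE and 2.73 without it, and ADAMTS1 was lower, by differences of -1.22 and -1.58. Of 8 other stress-induced secreted factors measured, 6 were at the floor in each line and none changed by size with OGE. The same background shares apply, with 2.18% of genes lower in HOS, and nothing is read from that count. HBEGF, a ligand of the EGF receptor, was higher by 0.93 in U2-OS and 0.95 in HOS. INHBA, an activin subunit, was higher in U2-OS than in HOS, by 2.23 with OGE and 2.20 without it.

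Lists of genes that share known regulators with the 8 genes were counted in the same way. Of 13 ATF4 and CHOP targets, 10 were higher by size in U2-OS, 7 in HOS and 6 in both, and none was lower, with medians of 2.08 and 1.06. Over all genes at the floor these shares were 2.94%, 1.70% and 0.768%, with medians of -0.01 and 0.02. DDIT4, named above as nearest to GDF15, is on this list, with changes of 4.89 and 2.01, so these results share a gene. PPP1R15A, a phosphatase subunit, was higher by 3.59 and 2.53, the transcription factor ATF3 by 2.98 and 0.68, and the pseudokinase TRIB3 by 2.92 and 1.79. Of 14 measured HIF reporter genes, 7 were higher in U2-OS, 3 in HOS and 2 in both, against the same background shares, with medians of 0.96 and 0.67. Besides HK2, NDRG1 was higher by 3.23 and 1.40, BNIP3, a mitophagy receptor, by 2.99 and 0.83, and PDK1, a pyruvate dehydrogenase kinase, by 2.68 and 0.59. Without OGE, 3 of the 14 HIF reporter genes were lower by size in U2-OS than in HOS and none was higher. Among all genes at the floor, 5.64% were lower and 8.26% higher. The 3 genes were HK2, BNIP3 and PDK1, with differences of -2.62, -1.66 and -1.34. The list's median difference was 0.095. ADM was also lower in U2-OS without OGE, while VEGFA differed by -0.15, under the threshold. The lists were drawn up with earlier results of these arrays known, so their direction is not independent evidence.

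Of 8 measured PPAR targets, 5 were at the floor in each line. PLIN2 alone changed by size with OGE, by 3.32 in U2-OS and 1.51 in HOS. Among all genes at the floor, 2.94% were higher in U2-OS and 1.70% in HOS. The fatty acid carnitine transferase CPT1A was lower in U2-OS than in HOS, by differences of -2.84 with OGE and -2.71 without it. PSAT1, a serine synthesis enzyme on the ATF4 list, was also lower in U2-OS, by differences of -2.03 with OGE and -2.27 without it, and NUPR1 higher, by 2.93 and 1.56.

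**Figure D5:**
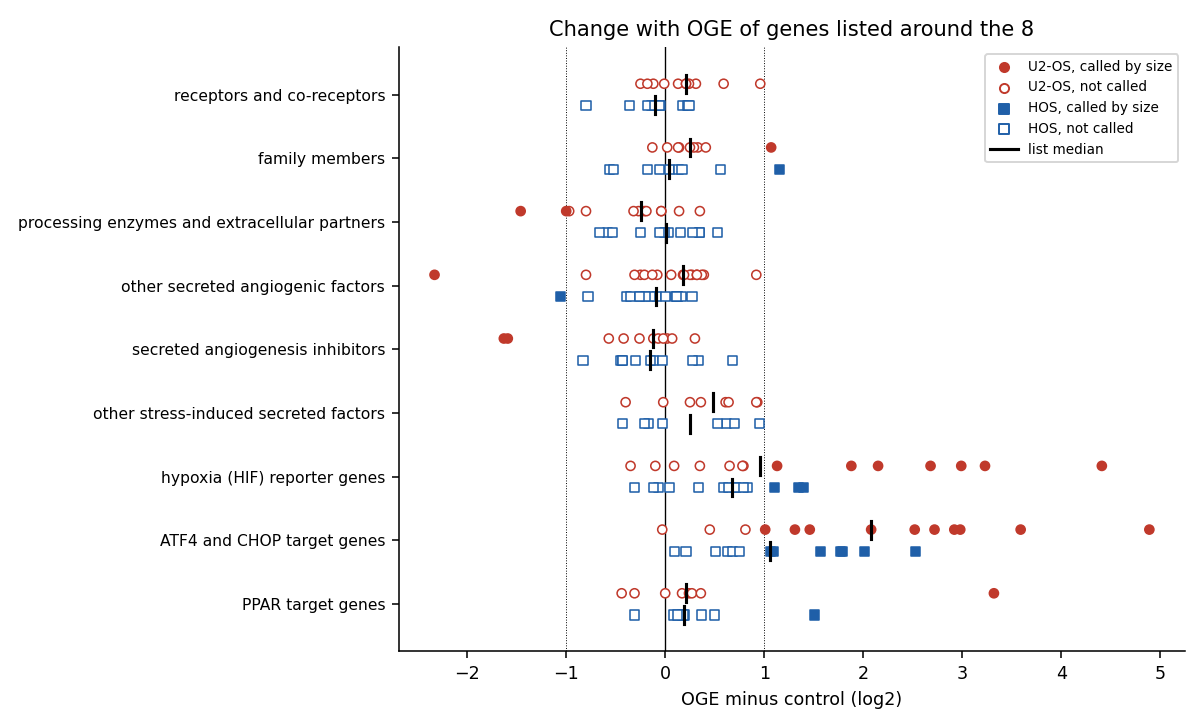
Change with OGE (log2, horizontal axis) of every measured gene of 9 lists drawn around the 8 genes, with U2-OS as red circles above HOS as blue squares; filled symbols were called by size, black bars are list medians and dotted lines mark 2-fold. The ATF4 and CHOP list has the highest medians, 2.08 in U2-OS and 1.06 in HOS. The receptor list and the list of other stress-induced secreted factors have no filled symbol.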

How the data were processed

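Expression was measured in total RNA labelled with biotin by a whole-transcript protocol, 1 array per group. The deposited log2 values were made by the authors by RMA; the tool is named without a version in the submitters' processing notes. The log base was read from the range of the values, 0.16 to 13.41. RMA draws the arrays to 1 distribution and pulls low signals together, so changes of low genes come out too small, and a shift common to all genes is hidden. Precision is limited by the number of arrays.

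Of 33297 probe sets, 19460 have 1 gene symbol in the platform annotation, 1754 several and 12083 none; 19429 were matched by gene ID to RefSeq (GRCh38.p14). The probe set with the highest mean stood for each of 18417 genes; each of the 8 genes has 1. No p-value was computed, because each group has 1 array and the genes were chosen on these contrasts. The 8 genes and all lists were chosen with earlier results of these data known. From each list, up to 4 genes with the largest called change with OGE and up to 2 with the largest line difference called in both states are named. Also named are genes chosen after their values were seen (ADM2, FURIN, HBEGF, FLT4, RAMP1, RAMP2, RAMP3, low receptors and proteases, and markers given for their level). A further list drawn up with those described is not reported here. The size rule was tested on simulated data. Python 3.11.15, pandas 2.3.3 and R 4.3.3 with limma 3.58.1 (normalizations only) were used.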

Additional observations from a re-analysis of the deposited data

Results flagged for a closer look

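STC2 changed with OGE by -0.33 in U2-OS and 1.26 in HOS, VEGFB by -0.22 and 0.47, and ANGPTL4 by -0.23 and 0.15. These 3 genes are listed because the lines moved in opposite directions. The differences were not tested, each rests on 1 array per group, and only the STC2 change in HOS reached 2-fold. Both U2-OS values of STC2 and of ANGPTL4 were below the array median.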

How the results depend on the processing

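Every change with OGE and every line difference of the 8 genes was recomputed after quantile normalization, cyclic loess, centring of the arrays on their medians, and with probe sets averaged per gene. All 128 of these values kept their call, and the largest shift was 0.23 on the log2 scale. Averaging could change nothing, since each gene has 1 probe set. Centring could change little, since the array medians already lay between 3.58 and 3.62. RMA had already drawn the arrays to 1 distribution. Calls kept after a further normalization are therefore a weak check, for the 8 genes and for the lists below. Of 72 recomputed counts, 66 stayed within 1.5 times the count given in the report. At 3-fold, the genes higher with OGE numbered 1 in HOS and 1 in both lines, and those higher in U2-OS than in HOS without OGE 0. With a floor at the 75th percentile, 1 gene was higher in both lines and 1 was higher in U2-OS without OGE. The gene lost from each count was GDF15, at 4.57 in HOS with OGE and 3.98 in U2-OS controls. Its calls in HOS and between the lines without OGE thus depend on the floor. At 1.5-fold, 2 genes were lower in U2-OS than in HOS with OGE. For the lists, 3 normalizations were added after seeing the data. Of 216 list counts 211 stayed within 1.5 times, and of 300 differences of genes named from the lists 298 kept their call and none reversed; PAM and CALCB in U2-OS lost a call. After quantile normalization 1 other stress-induced secreted factor was higher in U2-OS with OGE. The shifts of the counts over the 8 genes follow from the threshold or floor itself. No paired analysis was possible because each group has 1 array and no replicate numbers, and no array could be left out.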
